A study of Arabidopsis thaliana with 16 samples.

Results

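In Col-0 seedlings of *Arabidopsis thaliana*, 565 isolated segments of chromosomes 1 to 5 lay in H3K27me3 peaks at 3 days after imbibition (DAI) and away from any H3K27me3 peak at 1 DAI. They were chosen by a rule on the Col-0 values themselves. A segment is a contiguous run of bases in a peak of both Col-0 libraries of 3 DAI and of neither Col-0 library of 1 DAI, at least 500 bp long, that does not touch a peak of either Col-0 library of 1 DAI. The 565 segments are 9.43% of the 5992 stretches of 500 bp or more that lay in peaks of both Col-0 libraries of 3 DAI, and hold 684 kb, or 19.9% of the 3434 kb new at 3 DAI in Col-0. Another 1624 new stretches of at least 500 bp adjoin a Col-0 peak of 1 DAI and are called edge segments below.

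The study profiled H3K27me3 by ChIP-seq in *Atsdr4l-4*, *Atsdr4l-5* and Col-0 seedlings at 3 DAI and at 1 DAI, with 2 libraries in each of the 6 groups and 12 in all. Every group was grown on medium with 1% sucrose. Both alleles carry a segmental deletion within *AtSDR4L* (AT1G27461) in the Col-0 background. *Atsdr4l-4* was segregated from an earlier biallelic mutant, and *Atsdr4l-5* came from genome editing, was backcrossed to Col-0 and was bulked from lines free of the nuclease. Nothing in the labels ties the replicates to separate plantings, so that a p-value measures the spread between these libraries, which may be technical. Whole seedlings were used, in which a change in the makeup of cell types and a change of the mark within cells cannot be told apart.

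H3K27me3, the trimethylation of lysine 27 of histone H3, is laid down by Polycomb repressive complex 2 (PRC2) and marks genes held silent in a given tissue or stage. During the change from seed to seedling, the genes of seed maturation, which direct the making of storage protein, oil and proteins of drying tolerance, are shut off, and H3K27me3 is known to build up over many of them. VAL proteins, which read the RY motif CATGCA through a B3 domain, are known to bring PRC2 to such genes. The G-box CACGTG is bound by bZIP and bHLH factors, among them ABI5, which acts in the response to abscisic acid (ABA).

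The sequences shown here are the 150 bp windows with the most RY and G-box matches in 6 of the segments over seed genes, all on the plus strand of TAIR10, since both motifs were more frequent in the isolated segments than elsewhere. These 6 stood at the top by match count, with further segments tied at 2 matches, so they are not typical. The richest windows of *AtLEA4-1* and AT2G42560 held 1 match each. Capitals mark RY (CATGCA, or TGCATG on the other strand) and G-box (CACGTG, its own reverse complement) matches, and neighbouring RY matches can overlap, as in CATGCATG. The window of *OLEO1* (chr4:12900275-12900424), just before the start of an oleosin gene, holds 3 RY and 2 G-box matches.
OLEO1: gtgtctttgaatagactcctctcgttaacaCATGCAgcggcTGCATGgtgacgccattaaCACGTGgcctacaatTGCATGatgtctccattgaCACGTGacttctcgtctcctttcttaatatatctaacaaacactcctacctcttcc
The window of *ECP63* (chr2:15358641-15358790), which encodes a late embryogenesis abundant (LEA) protein, holds 2 overlapping RY matches beside 1 G-box.
ECP63: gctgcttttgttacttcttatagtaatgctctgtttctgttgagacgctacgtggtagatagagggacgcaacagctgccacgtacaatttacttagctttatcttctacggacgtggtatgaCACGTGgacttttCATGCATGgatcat
The window of *HSD5* (chr4:6268036-6268185), a hydroxysteroid dehydrogenase gene of the steroleosin family, holds 2 RY matches and 1 G-box.
HSD5: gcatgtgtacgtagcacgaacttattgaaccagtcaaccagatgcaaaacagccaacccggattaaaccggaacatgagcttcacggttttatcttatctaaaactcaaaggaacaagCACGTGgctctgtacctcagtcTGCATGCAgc
The window of AT4G18650 (chr4:10265446-10265595), also known as *DOGL4* and related to the dormancy gene *DOG1*, holds 3 overlapping RY matches and no G-box.
AT4G18650: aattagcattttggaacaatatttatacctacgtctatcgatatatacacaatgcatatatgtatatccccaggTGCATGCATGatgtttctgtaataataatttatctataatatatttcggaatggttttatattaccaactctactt
The window of the cruciferin segment (chr1:989815-989964) lies in part in the coding sequence of AT1G03890, and holds 2 overlapping RY matches.
CRU2,AT1G03890: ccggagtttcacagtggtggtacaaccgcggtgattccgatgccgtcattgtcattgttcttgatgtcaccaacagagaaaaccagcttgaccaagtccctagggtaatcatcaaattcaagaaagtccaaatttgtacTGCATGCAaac
The window of *AtSDR4L* (chr1:9539456-9539605), outside the annotated gene, holds 1 RY match and 1 G-box.
AT1G27461: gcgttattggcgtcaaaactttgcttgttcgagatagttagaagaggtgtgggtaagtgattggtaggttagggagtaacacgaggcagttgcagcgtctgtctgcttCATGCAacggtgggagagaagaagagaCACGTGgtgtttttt

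Over the central 500 bp of each, RY occurred in 33.6% of the isolated segments, 25.4% of the edge segments, 27.7% of all stretches of both Col-0 libraries of 3 DAI and 18.7% of all 237804 windows of this length on the chromosomes. The G-box occurred in 12.6% of the isolated segments, against 10.04% of the edge segments, 7.74% of the Col-0 stretches and 5.35% of all windows. GAGAGA, on either strand, occurred in 43.2% of the isolated segments and 36.7% of all windows. The telobox AAACCCTA, another motif tied to PRC2, was in 5.13% of the isolated segments and 6.25% of all windows, so that it did not share the direction of the other motifs. The median GC content was 37.2% in the isolated segments, 34.6% in the edge segments and 36.6% over all windows. A match is a description of the letters and neither a bound site nor a cause.

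The isolated segments were short and weak next to all peaks of the Col-0 libraries of 3 DAI. Their median length was 954 bp, from 501 to 6302 bp, with quartiles of 654 and 1481 bp. The Col-0 peaks of 3 DAI that hold a segment had median widths of 1256 and 1189 bp in replicates 1 and 2. Over all peaks of these libraries the medians were 2618.5 and 2653.5 bp. At the length limit, the 3 shortest segments had 501, 502 and 504 bp, of which the last lies over *CYP71B14*, and the 3 longest otherwise eligible stretches left out had 499, 498 and 497 bp. A further 301 isolated stretches fell below 500 bp. The nearest Col-0 peak of 1 DAI was a median of 5087 bp away, and 143 segments were at least 10000 bp from one. For 507 of the 565, the whole Col-0 peaks of 3 DAI that hold the segment touched no Col-0 peak of 1 DAI either. The segments were spread evenly over the chromosomes, with 4.42 to 4.94 per Mb and 147, 87, 116, 87 and 128 on chromosomes 1 to 5. Only 41 of the 560 gaps between neighbouring segments were under 5000 bp.

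Peak strength is given in the deposited lists as the fold enrichment of pileup over the local background and as the -log10 of the q value, both averaged over a peak. Over the isolated segments the median -log10 q was 5.29 and 4.15 in the Col-0 libraries of 3 DAI, against 10.3 and 8.38 over all peaks of these libraries. The median fold enrichment was 1.75 and 1.71 over the segments, against 2.08 and 2.05 over all peaks. If a Col-0 peak of 3 DAI had to reach a -log10 q of 5, 211 segments were left. The same rule turned round, for stretches in peaks of both Col-0 libraries of 1 DAI and away from those of 3 DAI, gave 180 segments and 178 kb. The rule fixes cover in Col-0 at 100% at 3 DAI and at 0% at 1 DAI, and these values carry no test.

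The 8 *Atsdr4l* libraries took no part in the choice and showed whether the segments recur. At 3 DAI, peaks held 59.2% and 77.6% of the total segment length in *Atsdr4l-4* replicates 1 and 2, and 67.9% and 69.6% in *Atsdr4l-5* replicates 1 and 2. At 1 DAI, they held 9.53% and 8.10% in the *Atsdr4l-4* replicates, with 5.21% and 7.64% for *Atsdr4l-5*. The lowest library of 3 DAI was thus far above the highest of 1 DAI. Cover averaged 68.6% ± 7.53 at 3 DAI and 7.62% ± 1.80 at 1 DAI (SD, n = 4 each), a difference of 60.9 percentage points (exact permutation test over 70 relabellings, two-sided, p = 0.0286, the smallest they allow). The 4 libraries of a time are 2 alleles with 2 replicates each, and with time labels permuted within each allele the call is lost (exact permutation test, p = 0.0556, the smallest that design allows, for cover and for calls alike). By allele it was 59.6 points for *Atsdr4l-4* and 62.3 points for *Atsdr4l-5*. A segment is called in a library where peaks hold at least 50% of it. By this count, 366, 458, 409 and 427 segments were called in the 4 *Atsdr4l* libraries of 3 DAI, against 58, 51, 30 and 45 in those of 1 DAI, a difference of 65.3 percentage points (exact permutation test, two-sided, p = 0.0286).

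**Figure D1:**
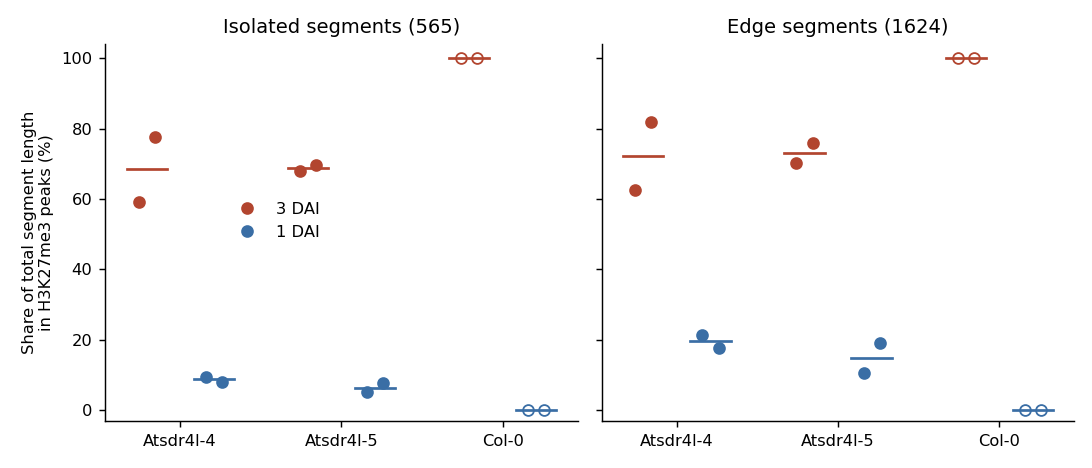
Share of the total length of the 565 isolated segments (left) and of the 1624 edge segments (right) that lay in H3K27me3 peaks, in percent, with 1 point per library and a line at the mean of 2 replicates. The *Atsdr4l* libraries of 3 DAI lie between 59.2% and 77.6% over the isolated segments and those of 1 DAI at 9.53% or below, while the open Col-0 points at 100% and 0% follow from the rule.

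The total length in peaks moved the same way as these values only in part. The *Atsdr4l* libraries covered 24.9 to 28.2 Mb at 3 DAI and 21.3 to 25.3 Mb at 1 DAI, and at 3 DAI the order of the 4 libraries in segment cover was their order in total length. At 1 DAI the orders differed, with 7.64% at 24.6 Mb in *Atsdr4l-5* replicate 2 and 8.10% at 23.7 Mb in *Atsdr4l-4* replicate 2. *Atsdr4l-4* replicate 1 covered 24.9 Mb at 3 DAI and 25.3 Mb at 1 DAI, with 59.2% and 9.53% of the segment length. The depth of the libraries is unknown, and its part in the result was not tested. Where *Atsdr4l* peaks of 1 DAI did reach a segment they were weak, with a median fold enrichment of 1.40 to 1.49 and a median -log10 q of 1.73 to 2.23. At 3 DAI these medians were 1.68 to 1.77 and 3.58 to 5.21 in *Atsdr4l*.

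Taken one by one, 350 segments (61.9%) had a higher cover in every *Atsdr4l* library of 3 DAI than in any of 1 DAI, and 0 segments had the opposite order. The background for this count was 31.1% of the 5992 stretches of both Col-0 libraries of 3 DAI and 9.75% of the 41304 bins of 1000 bp that hold a peak base in any library. Of the edge segments, 805 of 1624 (49.6%) were separated in this way. In all 4 *Atsdr4l* libraries of 3 DAI, 288 segments were called, and 419 (74.2%) had 0 bp in peaks in all 4 of 1 DAI. Both held for 185 segments. At the other end, 18 segments had 0 bp in all 4 *Atsdr4l* libraries of 3 DAI, with a median length of 646 bp and a longest of 1603 bp. They lay over, among others, *TSPO*, a membrane protein gene induced by ABA, and *TPPJ*, a trehalose phosphatase gene.

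**Figure D2:**
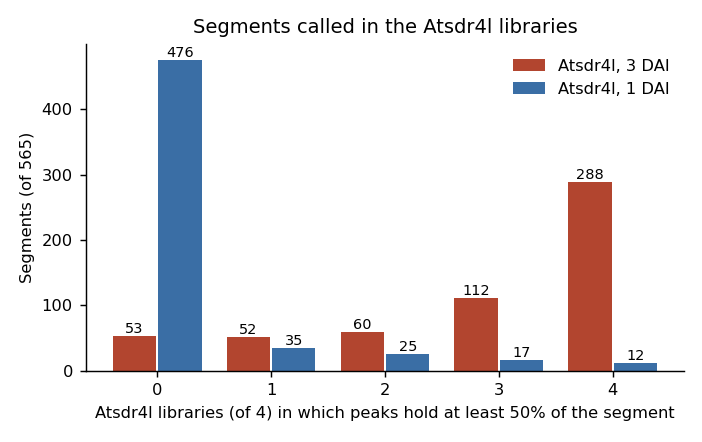
Number of isolated segments (of 565) by the number of *Atsdr4l* libraries, of 4, in which peaks hold at least 50% of the segment, at 3 DAI and at 1 DAI. At 3 DAI 288 segments were called in all 4 libraries and 53 in none, while at 1 DAI 12 were called in all 4 and 476 in none.

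The edge segments were covered more at 3 DAI too, and the test of isolated against edge segments missed its threshold. Edge cover was 72.7% ± 8.27 at 3 DAI and 17.2% ± 4.72 at 1 DAI in *Atsdr4l* (SD, n = 4 each), a difference of 55.5 points (exact permutation test, two-sided, p = 0.0286). Isolated minus edge cover was -4.12 ± 1.75 points at 3 DAI and -9.60 ± 3.02 points at 1 DAI (SD, n = 4 each), and the change of 5.48 points missed the threshold (exact permutation test, two-sided, p = 0.0571). It passed when *Atsdr4l-5* replicate 1 of 1 DAI was left out, at 6.90 points, and when the segments were defined without Col-0 replicate 1 or replicate 2 of 1 DAI, at 9.01 and 10.3 points (exact permutation test, p = 0.0286 for each). It was smaller when Col-0 replicate 2 of 3 DAI took no part in the choice, at 2.85 points (exact permutation test, p = 0.143), and it was 3.28 points with the 6000 highest peaks of each library (exact permutation test, p = 0.171).

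Longer isolated segments were separated more often in *Atsdr4l*, and they also had stronger peaks in Col-0. Of the 302 segments below 1000 bp, 51.7% had every library of 3 DAI above every library of 1 DAI, of the 190 between 1000 and 2000 bp 68.9%, and of the 73 of 2000 bp or more 86.3%. The median -log10 q in Col-0 at 3 DAI was 4.28, 4.77 and 7.51 in these classes. Its part in the trend was not tested. The share called in all 4 libraries of 3 DAI did not follow length, at 50.7%, 55.3% and 41.1%. A long segment can be reached by a peak in every library and still be covered only in part, and several of those below are of that kind.

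Genes were taken from the TAIR10.1 annotation of RefSeq. Of the 565 segments, 431 (76.3%) overlapped a protein-coding gene, 28 overlapped only a gene of another class and 106 (18.8%) overlapped none. They reached 466 protein-coding genes, 1.7% of the 27444 on the 5 chromosomes. Of these genes, 231 (49.6%) lay in segments over at least 50% of their length and 46 over their whole length. Edge segments covered at least 50% of 36.3% of the 1290 genes they reached. A gene start lay within 183 isolated segments (32.4%), close to the 31.8% of edge segments. Only 2 miRNA genes were reached, *MIR829* and *MIR8184*.

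Seed genes were frequent under the segments. Over 7 lists of seed genes (embryo regulators, the *AtSDR4L* family, ABA-related bZIP genes, dormancy, storage protein, oil and LEA genes), 21 of 89 genes (23.6%) were reached, against 1.7% of all protein-coding genes. In 9 lists of other regulators (hormone enzymes, reserve mobilisation, meristem and floral genes, *YUCCA* and Polycomb genes) 5 of 109 (4.59%) were reached. A gene with a Col-0 peak of 1 DAI over it can hardly be reached. Among the genes with no such peak in either library, 21 of 60 seed genes (35%), 5 of 40 genes of the other lists (12.5%) and 2.29% of 19541 protein-coding genes were reached. The lists were drawn up with earlier results of these data known, and the counts follow from Col-0 values that the rule used.

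Whole genes of these lists, counted in the *Atsdr4l* libraries that the rule did not use, were also tallied by time. Of the 89 seed genes, 60 had a peak over the gene in all 4 *Atsdr4l* libraries of 3 DAI and 14 in all 4 of 1 DAI. Of the 109 other genes the counts were 74 at 3 DAI and 62 at 1 DAI. The length of gene in peaks was higher in every *Atsdr4l* library of 3 DAI than in any of 1 DAI for 47 seed genes (52.8%) and 23 other genes (21.1%), against a background of 6.38% of all protein-coding genes. A gene in peaks over its whole length at 1 DAI, such as *WUS* or *AG*, cannot be separated in this way. Nor can a gene with no peak at either time, and the background holds genes of both kinds. The gap between these shares is thus not read as particular to seed genes. As a check of the annotation against the peaks, all 6 known H3K27me3 targets had a peak in each of the 12 libraries and all 6 housekeeping genes had one in none.

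The 21 seed genes lay under 20 segments. All 20 had 0 bp in peaks in every library of 1 DAI, so that the values below are base pairs of the segment covered at 3 DAI in *Atsdr4l-4* replicates 1 and 2 and *Atsdr4l-5* replicates 1 and 2, in that order. In 14 of the 20 every *Atsdr4l* library of 3 DAI had a peak, in 8 every one was called, and 1 had no peak in any. Over all 565 isolated segments, 350 were separated by time, 288 were called in all 4 and 18 had no peak in any, and nothing particular to the 20 is read from their counts.

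**Figure D3:**
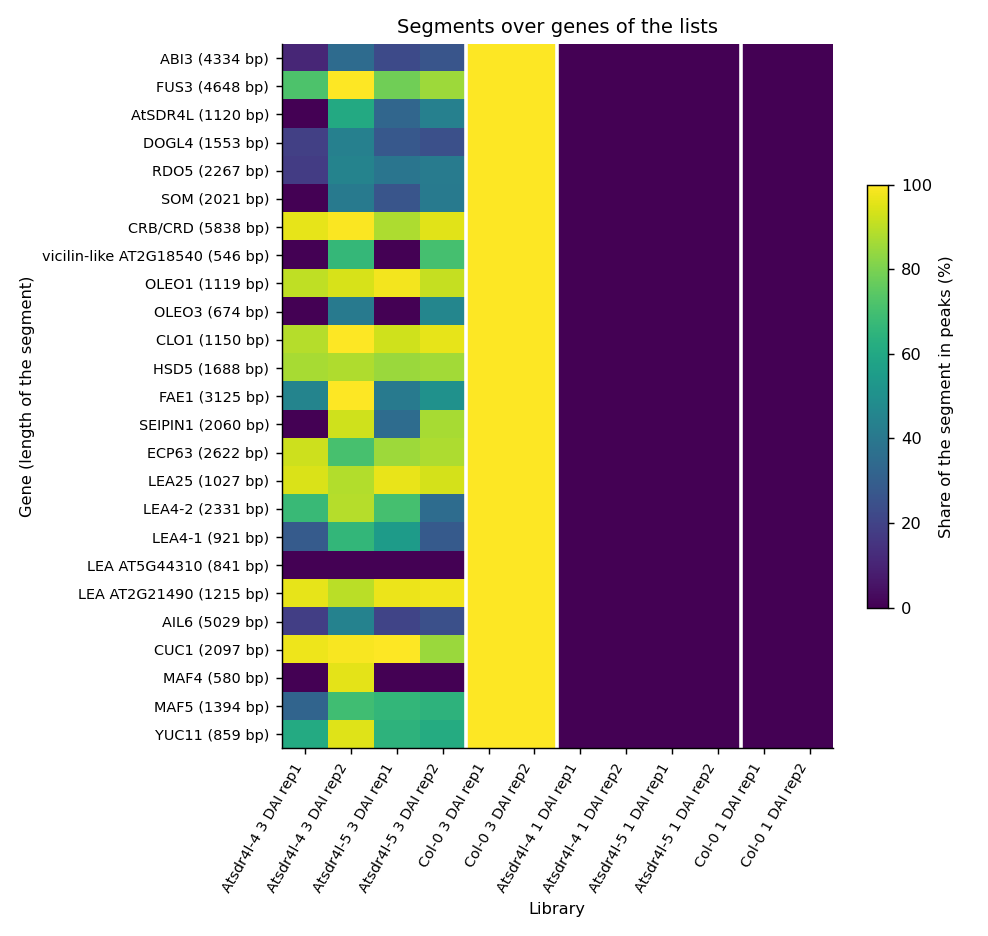
Share of each of 25 segments over genes of the lists that lay in H3K27me3 peaks, in percent by colour, in the 12 libraries, with the length of the segment in brackets. Every library of 1 DAI is at 0. At 3 DAI the segments at *OLEO1*, *CLO1*, *HSD5*, *CUC1* and the cruciferins (*CRB/CRD*) are covered nearly whole in all 4 *Atsdr4l* libraries. Those at *ABI3*, *DOGL4*, *RDO5*, *SOM* and *AIL6* are covered in part, at *AIL6* outside the gene.

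Of the storage and oil genes, some lay under segments that were covered nearly whole in every *Atsdr4l* library. The cruciferin segment, the second longest of all at 5838 bp (chr1:985125-990962), spans the whole of *CRU2* (AT1G03880), a 12S globulin gene, and 96.8% of its neighbour AT1G03890, a further cupin gene. Peaks held 5627, 5797, 5121 and 5576 bp of it in *Atsdr4l*. *OLEO1* (AT4G25140, chr4:12900275-12901393), the gene of a main oil body protein, had a segment of 1119 bp covered over 1012, 1052, 1101 and 1019 bp. *ATS1* (AT4G26740), also called *CLO1*, encodes the caleosin of oil bodies, and its 1150 bp were covered over 1024, 1150, 1069 and 1107 bp. *HSD5* (AT4G10020) had 1688 bp, covered over 1470, 1489, 1437 and 1455 bp. Every *Atsdr4l* library of 3 DAI held at least 85.1% of each of these segments, and none overlapped with the 0 bp of 1 DAI. The mean -log10 q was 21.6 in *Atsdr4l* and 37.0 in Col-0 at *OLEO1*, and 8.95 in *Atsdr4l* and 17.3 in Col-0 at *HSD5*.

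Other oil genes lay under segments whose cover was uneven between libraries. *KCS18* (*FAE1*, AT4G34520), which encodes the elongase that makes the very long fatty acids of seed oil, had a segment of 3125 bp covered over 1409, 3125, 1290 and 1583 bp. The gene itself (1638 bp) was covered more evenly, over 1356, 1638, 1290 and 1410 bp. AT5G16460, or *SEIPIN1*, whose product shapes lipid droplets, had 2060 bp covered over 0, 1908, 732 and 1793 bp. *OLEO3* (AT5G51210) had 674 bp covered over 0, 279, 0 and 309 bp. *Atsdr4l-4* replicate 1, the library with the shortest total length in peaks at 3 DAI, had no peak at *SEIPIN1* and *OLEO3*, so that these overlap with the libraries of 1 DAI at 0 bp. The same holds for the vicilin-like gene AT2G18540, with 0, 364, 0 and 386 of 546 bp. Of the 13 listed oil genes, 6 lay under segments, and 0 of the 13 had a peak in both Col-0 libraries of 1 DAI.

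LEA proteins accumulate in drying seeds, and 6 of the 32 listed LEA genes lay under segments. By the words of the annotation, 6 of 86 late embryogenesis genes (6.98%) were reached, among them AT2G41990 and AT3G05975, which were not listed. AT2G42560 (*LEA25*) had a segment of 1027 bp covered over 967, 909, 991 and 962 bp, and the dehydrin gene AT2G21490 (*LEA*) one of 1215 bp covered over 1168, 1091, 1181 and 1190 bp. *ECP63* (AT2G36640) had 2622 bp covered over 2424, 1857, 2233 and 2304 bp. These were covered alike in all 4 libraries. *LEA18* (AT2G35300, 2331 bp) was covered over 1576, 2072, 1641 and 824 bp, and *AtLEA4-1* (AT1G32560, 921 bp) over 265, 610, 506 and 261 bp. AT5G44310, with a segment of 841 bp and a mean -log10 q of only 1.88 in Col-0, was the one with 0 bp in all 4 *Atsdr4l* libraries.

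The regulators of maturation differed from each other. *FUS3* (AT3G26790) and *ABI3* (AT3G24650) both encode B3 transcription factors that direct seed maturation. The *FUS3* segment of 4648 bp (chr3:9853384-9858031) spans the whole gene, and 3344, 4634, 3641 and 3959 bp of it lay in *Atsdr4l* peaks. The *ABI3* segment is of like length, 4334 bp (chr3:8997457-9001790), and was covered over 472, 1512, 965 and 1143 bp. In each *Atsdr4l* library a peak lay between 347 and 1656 bp from the annotated start of *ABI3*, and a second peak further into the gene was found in *Atsdr4l-4* replicate 2 alone, while both Col-0 peaks ran past the end of the gene. A second isolated segment, of 846 bp over AT3G24640 (chr3:8992293-8993138) upstream of *ABI3*, was covered over 354, 504, 303 and 491 bp.

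**Figure D4:**
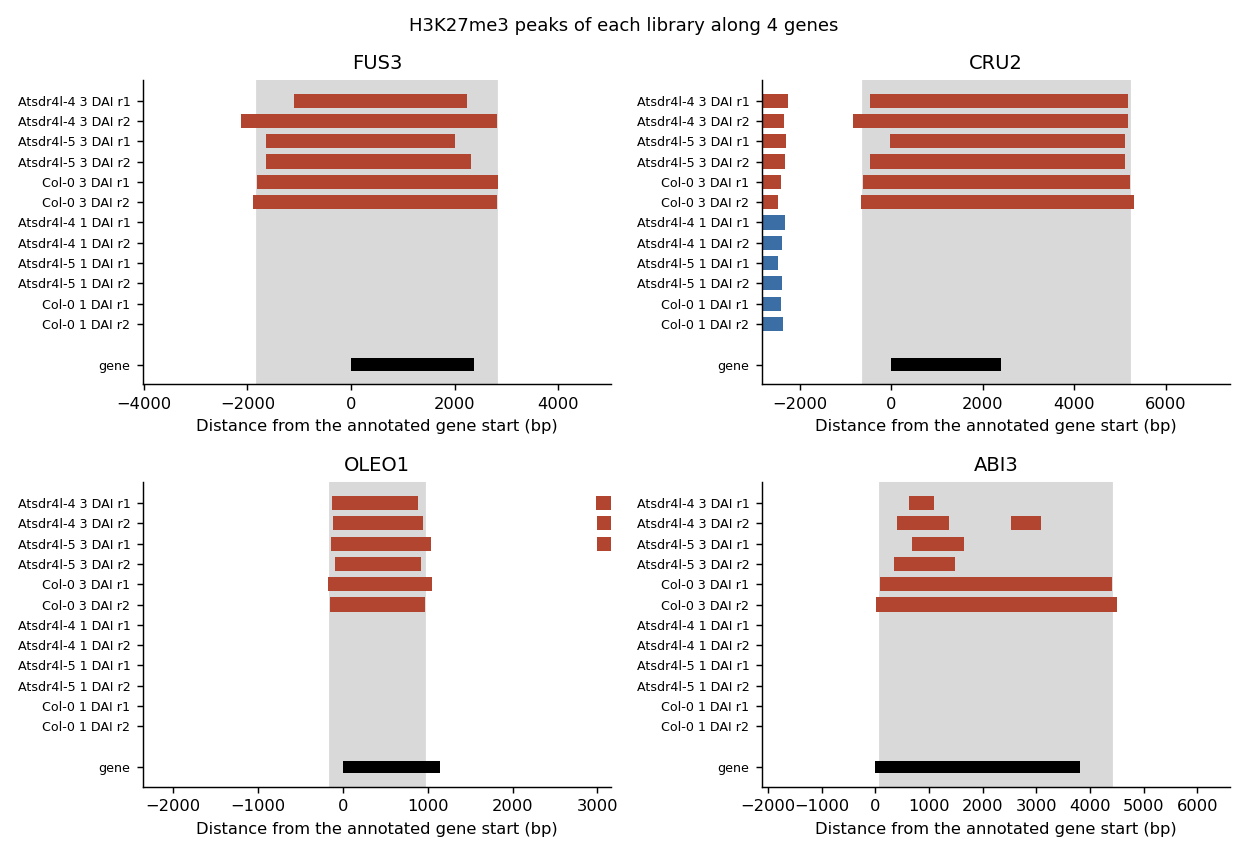
H3K27me3 peaks of the 12 libraries (red at 3 DAI, blue at 1 DAI) along *FUS3*, *CRU2*, *OLEO1* and *ABI3*, by distance in bp from the annotated gene start, with the isolated segment in grey and the gene as a black bar. No library of 1 DAI has a peak in the grey segments, and at *ABI3* the *Atsdr4l* peaks of 3 DAI cover 472 to 1512 of 4334 bp.

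Of the 8 listed dormancy genes, 3 lay under segments, and the values here are of those 3 alone. *DOGL2*, a dormancy gene under no segment, had 708 of its 708 bp in peaks in all 4 *Atsdr4l* libraries of 3 DAI. AT4G11040 (*RDO5*), which encodes a protein of the phosphatase 2C family that promotes dormancy, had a segment of 2267 bp covered over 407, 1018, 885 and 946 bp. *DOGL4* (AT4G18650, 1553 bp) was covered over 293, 676, 429 and 377 bp. *SOM* (AT1G03790), a zinc finger gene that restrains germination in the dark, had 2021 bp covered over 0, 831, 531 and 833 bp. These 3 segments are below 50% in each *Atsdr4l* library, against a whole segment in Col-0, on which the choice was made. The segment at *AtSDR4L* itself (1120 bp) was covered over 0, 682, 370 and 489 bp. Only 472 bp of it lie in the gene, and peaks held 0, 141, 0 and 5 bp of the gene in these libraries. Both alleles lack a stretch of this gene.

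The segments over the other lists were few. *CUC1* (AT3G15170), a NAC factor gene of organ boundaries, had 2097 bp covered over 2043, 2073, 2097 and 1780 bp, and *YUC11* (AT1G21430), a gene of auxin synthesis, 859 bp covered over 525, 816, 556 and 527 bp. *AIL6* (AT5G10510), a meristem gene of the PLETHORA family, had one of the longest segments, 5029 bp, covered over 924, 2226, 1037 and 1228 bp. Only 1067 bp of this segment lie in *AIL6*, and no *Atsdr4l* peak of 3 DAI reached the gene itself. The neighbouring floral repressor genes *MAF5* (1394 bp; 450, 964, 924 and 903 bp) and *MAF4* (580 bp; 0, 557, 0 and 0 bp) had a segment each. These 5 segments also had 0 bp in every library of 1 DAI. All but that of *MAF4* were separated by time in *Atsdr4l*, as were 61.9% of all isolated segments. None of the ABA synthesis and breakdown, gibberellin oxidase, bZIP, reserve mobilisation, *WOX* and Polycomb genes listed was reached.

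Beyond the lists, the longest segments were mixed in function. The longest of all, 6302 bp, covers *MGL*, the gene of methionine gamma-lyase, and *BDG1*, a gene of cuticle formation. It was covered over 4568, 6032, 4777 and 5970 bp in *Atsdr4l* at 3 DAI and over 2411, 3751, 0 and 2078 bp at 1 DAI. *GASA3* and *GASA2*, genes of gibberellin-regulated peptides, share 3822 bp, covered over 3652, 3822, 3787 and 3822 bp at 3 DAI and over 354 bp in 1 library of 1 DAI. Both are separated by time, and 3 of the 4 *Atsdr4l* libraries already had peaks at *MGL* and *BDG1* at 1 DAI, where by the rule Col-0 has none. The segment of 3800 bp at AT5G53700, which encodes an RNA-binding protein, overlapped between times, with 1756, 3800, 3674 and 3691 bp at 3 DAI and 654, 1149, 1723 and 1807 bp at 1 DAI. A segment of 5014 bp on chromosome 5 (chr5:26022606-26027619) overlaps no annotated gene and was covered over 1977, 4988, 3402 and 4835 bp at 3 DAI and 0 bp at 1 DAI. *BGAL2*, a beta-galactosidase gene (3828 bp), was covered over 1858, 2635, 2183 and 2373 bp, and AT3G22800 (4420 bp) over 3014, 4342, 2730 and 2570 bp, both with 0 bp at 1 DAI. The segment over AT2G35810, AT2G35820 and AT2G35830 (3801 bp) was covered over 3801, 3801, 3801 and 3793 bp at 3 DAI and over 323, 0, 1066 and 271 bp at 1 DAI. Of the 12 longest segments, 10 were separated by time in *Atsdr4l* and 8 had 0 bp in all 4 *Atsdr4l* libraries of 1 DAI. Of all 73 segments of 2000 bp or more, 86.3% were separated and 74.0% had 0 bp at 1 DAI, so nothing particular to the 12 is read.

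The strongest peaks among the segments that were called in all 4 *Atsdr4l* libraries of 3 DAI and empty at 1 DAI lay over AT5G55750, a gene of a hydroxyproline-rich glycoprotein, with a mean -log10 q of 39.6 in *Atsdr4l* and 46.7 in Col-0. AT1G02040, a zinc finger gene, followed with 27.2 in *Atsdr4l*. The other 8 had 20.1 to 23.9, and lay over *OLEO1* (21.6), the MADS gene *AGL67* (21.5), the small heat shock protein gene AT1G53540 (21.3), the pollen arabinogalactan gene *AGP11*, AT2G34700, AT2G45360, AT3G30460 and AT5G62400. *AGL67* had a segment of 1738 bp covered over 1152, 1738, 1238 and 1316 bp.

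Some further groups were noticed after their values were seen, and their counts are descriptions. By the words of the annotation, 4 of 13 oleosin genes (30.8%), 3 of 16 genes of gibberellin-regulated peptides (18.8%), 4 of 29 xyloglucan endotransglucosylase genes (13.8%) and 18 of 248 cytochrome P450 genes (7.26%) were reached. The background is 1.7% of all protein-coding genes, and others of the 21 word groups counted were at or below it, with 8 of 653 F-box genes (1.23%), 2 of 139 lipid transfer protein genes (1.44%), 3 of 208 homeobox genes (1.44%), 1 of 72 WRKY genes (1.39%), 1 of 101 peroxidase genes (0.990%), and 0 of 180 MYB and 0 of 82 NAC genes. The words can miss a gene, as the NAC gene *CUC1* lay under a segment but was not counted among these. Of 55 photosystem and light-harvesting genes, 7 (12.7%) were reached. Among these, the segment of *PSAD-1* (552 bp) was covered over 537, 387, 530 and 310 bp and that of *PSBR* (517 bp) over 496, 334, 474 and 309 bp, but *PSBQA* (609 bp) over 267, 0, 0 and 0 bp. The mean -log10 q in Col-0 was 2.86 to 10.9 over these segments and that of *FBA1*, an aldolase gene of the Calvin cycle, and 5 of the 8 were separated by time in *Atsdr4l*, a share near the 61.9% of all isolated segments.

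Single genes of phenylpropanoid and flavonoid synthesis were also picked after their values were seen, with no list behind them. *TT4*, the gene of chalcone synthase, had 1350 bp covered over 1290, 1321, 1262 and 1350 bp in *Atsdr4l* at 3 DAI and over 318, 680, 465 and 340 bp at 1 DAI. *FLS1*, the gene of flavonol synthase, had 1007 bp covered over 989, 670, 788 and 939 bp at 3 DAI and 0 bp at 1 DAI. *TT7*, *PAL4*, *4CL2* and *FAH1*, which encode other enzymes of these routes, also had 0 bp at 1 DAI. The 6 picked were separated by time, as were 61.9% of all isolated segments. At *TT4* all 4 *Atsdr4l* libraries had a peak at 1 DAI, where by the rule Col-0 has none.

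Picked in the same way were 3 genes of ABA signalling, the phosphatase genes *HAI2* and *AHG1* and the receptor gene *PYL2*. *HAI2* (1730 bp) was covered over 1489, 1622, 1545 and 1559 bp, *AHG1* (2176 bp) over 1034, 1669, 1321 and 1357 bp and *PYL2* (728 bp) over 521, 549, 504 and 342 bp. Seed genes outside the lists were also reached. *HSFA9*, a heat stress factor gene of seeds, had 1065 bp covered over 270, 531, 356 and 1065 bp, and *TIP3;1*, the gene of a seed aquaporin of the vacuole, had 574 bp covered over 412, 0, 449 and 505 bp. All of these had 0 bp at 1 DAI, and *TIP3;1* alone among them was not separated by time.

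Applied to each genotype with its own 4 libraries, the rule gave 420 segments (465 kb) in *Atsdr4l-4* and 494 (567 kb) in *Atsdr4l-5*, against 565 (684 kb) in Col-0. An *Atsdr4l-4* segment overlapped 215 of the Col-0 segments (38.1%) and an *Atsdr4l-5* segment 246 (43.5%). Seen from the alleles, 220 of 420 (52.4%) and 247 of 494 (50%) overlapped a Col-0 segment. Of the Col-0 segments, 164 overlapped those of both alleles and 268 those of neither. With any 1 library of the genotype left out, each of these counts rose. The count in *Atsdr4l-4* was then 507 to 639, highest without its replicate 1 of 3 DAI. That in *Atsdr4l-5* was 565 to 785, highest without its replicate 2 of 1 DAI, and that in Col-0 was 664 to 744.

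The same rule was used in each genotype, but it may not have chosen with the same strictness, which was not tested. The 2 *Atsdr4l-4* libraries of 3 DAI differ more in total length than those of Col-0. At 1 DAI the 2 *Atsdr4l-5* libraries do so, with 21.3 and 24.6 Mb against 23.7 and 24.0 Mb in Col-0. The shares are set side by side as descriptions. Of the *Atsdr4l-4* segments, 92.1% were called in both Col-0 libraries of 3 DAI, and of the *Atsdr4l-5* segments 86.8%. Of the Col-0 segments, 58.6% were called in both *Atsdr4l-4* libraries of 3 DAI and 65.8% in both *Atsdr4l-5* libraries. Between the alleles, 86.9% of the *Atsdr4l-4* segments were called in *Atsdr4l-5* and 74.7% of the *Atsdr4l-5* segments in *Atsdr4l-4*. All peaks of a library of 3 DAI held 24.9 and 28.2 Mb for *Atsdr4l-4* and 25.9 and 26.4 Mb for *Atsdr4l-5*, against 27.5 and 27.6 Mb for Col-0, and the part of this in the shares was not tested.

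The same was counted among strong segments. Of the 113 Col-0 segments with a mean -log10 q of at least 10, 18 (15.9%) had a mean cover below 50% in *Atsdr4l-4* and 17 (15.0%) had one in *Atsdr4l-5*. As to the reverse, this was found for 2 of 105 strong *Atsdr4l-4* segments (1.90%) and 1 of 128 strong *Atsdr4l-5* segments (0.781%) in Col-0. Where both libraries of the own genotype had to reach 10, the count was 12 of 85 Col-0 segments in *Atsdr4l-4* (14.1%) and 9 of 85 in *Atsdr4l-5* (10.6%), against 0 of 57 *Atsdr4l-4* and 0 of 94 *Atsdr4l-5* segments in Col-0. These limits were set after the values were seen, and the comparison has no test. Over the 4 *Atsdr4l* libraries together, 15 strong Col-0 segments had a mean cover below 50%, and 8 of them reached a -log10 q of 10 in both Col-0 libraries. Besides *ABI3* and AT3G24640 upstream of it, *SOM*, *RDO5*, *AtSDR4L* and *AtLEA4-1*, the 15 include *HSD6*, another hydroxysteroid dehydrogenase gene (1543 bp, with 389, 615, 638 and 395 bp). *SOM* and AT3G24640 are not among the 8, with a -log10 q of 8.77 and 7.93 in Col-0 replicate 2.

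The other genes of this set vary in role. *CHX20*, a cation/H+ exchanger gene of guard cells, was covered over 635, 623, 632 and 584 of 1892 bp, alike in all 4 libraries, with a mean -log10 q of 20.8 in *Atsdr4l* and 24.6 in Col-0. Both Col-0 libraries were strong there, with 25.3 and 23.9. Some of the others rest on 1 Col-0 library. *LPR1*, the gene of a ferroxidase of the root response to phosphate, had 1934, 1223, 1104 and 0 of 4593 bp covered in *Atsdr4l*, and its -log10 q in Col-0 was 22.2 in replicate 1 but 3.15 in replicate 2. *PAR2*, a gene of the shade response, was covered over 0, 212, 0 and 0 of 2114 bp in *Atsdr4l*, with 2.51 and 19.7 in Col-0. The sulfate transporter gene *AST91* had 0 of 540 bp in all 4 *Atsdr4l* libraries, with 1.45 and 19.6 in Col-0. *ABI3*, by contrast, had 12.8 and 11.5 in the Col-0 replicates, against a mean of 3.77 over the 4 *Atsdr4l* libraries.

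**Figure D5:**
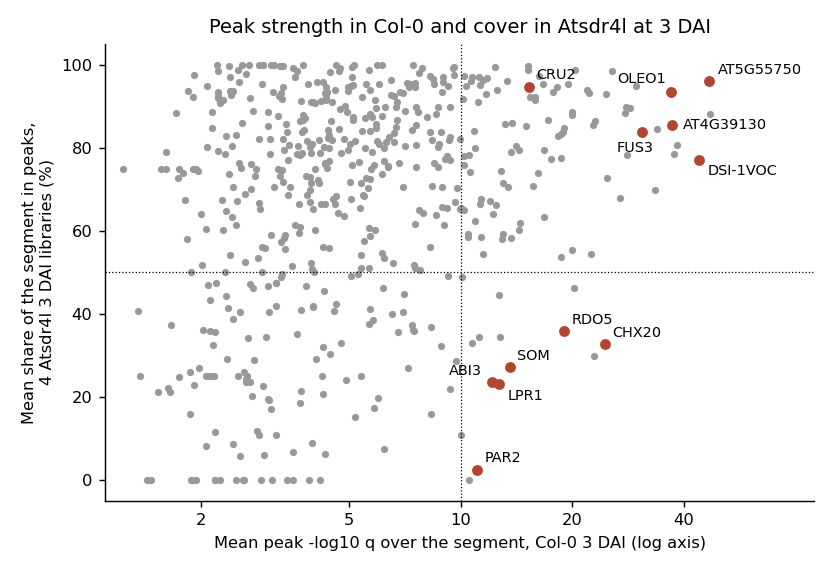
Mean share of each of the 565 segments in peaks of the 4 *Atsdr4l* libraries of 3 DAI, in percent, against its mean -log10 q in the Col-0 libraries of 3 DAI on a log axis, with named genes in red and dotted lines at 50% and at 10. Of the 113 segments to the right of the line, 15 lie below 50%, among them *ABI3*, *SOM*, *RDO5*, *LPR1*, *CHX20* and *PAR2*.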

How the data were processed

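H3K27me3 ChIP-seq of 12 libraries was used as the peak lists the authors deposited, 1 per library. Per the methods and the submitters' processing notes, the authors trimmed reads with fastp 0.23.4, aligned them to TAIR10 with Bowtie 2, kept well-mapped pairs (SAMtools 1.6) and ran MACS2 (2.2.6 and 2.2.7.1 are listed) in broad mode on each library against joined mock IgG controls, which were not used here. The deposited values are the fold enrichment, a linear ratio, the -log10 p-value and q-value, and a score within 1 of 10 times the -log10 q. The lists hold no counts, so depth is unknown, and the number of libraries limits the precision.

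From the positions, segments were found and their cover computed per library in Python 3.11.15 with numpy 2.4.6 and pandas 2.3.3. Organellar peaks were left out. They occurred in 5 libraries of 1 DAI and 0 of 3 DAI. Time was compared in the 8 *Atsdr4l* libraries by exact permutation of library labels, two-sided, at a threshold of 0.05. Both alleles were joined. Genes and sequences came from RefSeq TAIR10.1, whose chromosomes hold every peak and whose nuclear positions are used as those of TAIR10. All listed genes (89 of the seed lists, 109 of the others) and the 12 reference genes matched. Named segments were the 12 longest, up to 6 per gene list, the 10 strongest in *Atsdr4l* among those called at 3 DAI and empty at 1 DAI, and 3 on each side of the length limit. Others are said to be chosen after their values were seen. The segments and lists were chosen with earlier results of these data known. The programs were tested on simulated peak lists and values. Alternatives varied peak strength, length, distance, the share for a call, the pairing and each library in turn.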

Additional observations from a re-analysis of the deposited data

How the results depend on the processing

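Cover and calls in *Atsdr4l* were higher at 3 DAI under every alternative run, by 51.0 to 70.6 points of length and 48.6 to 79.4 points of calls. The change of isolated against edge segments kept its direction, at 2.85 to 13.2 points. Requiring 1000 bp left 263 segments, 194 of them separated by time in *Atsdr4l*, and 180 segments in *Atsdr4l-4* and 225 in *Atsdr4l-5* by their own rule. That change follows from the longer minimum. Under the main rule, 350 of the 565 segments were separated. A -log10 q of at least 5 in all libraries gave 825 segments in *Atsdr4l-5* and a fold enrichment of at least 2 gave 808, and the cause was not tested. Such limits also removed weak peaks of 1 DAI. A -log10 q of at least 5 in all libraries gave 763 Col-0 segments, of which 211 overlapped the 565, a fold enrichment of at least 2 gave 636 with 115, and the 6000 highest peaks of each library gave 572 with 453. A -log10 q of at least 5 in the Col-0 libraries of 3 DAI alone, chosen after seeing the data, left 211 segments, 182 of them separated, and moved the change against edge segments to 13.2 points (exact permutation test, p = 0.0286).

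With each library left out in turn, cover differed by 51.0 to 64.1 points, calls by 54.9 to 68.2 points and isolated against edge segments by 2.85 to 10.3 points. This comparison passed the threshold without Col-0 replicate 1 or 2 of 1 DAI or *Atsdr4l-5* replicate 1 of 1 DAI. The number of segments was 664 to 744 and the number separated 354 to 474. The alleles' own segments, an alternative chosen after seeing the data, numbered 507 to 639 in *Atsdr4l-4*, highest without its replicate 1 of 3 DAI, and 565 to 785 in *Atsdr4l-5*, highest without its replicate 2 of 1 DAI. A rule that needs fewer libraries is met more often.

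With the replicate number as a block, the differences were 60.9 points of cover and 65.3 points of calls (exact sign-flip permutation, p = 0.125 for both, the smallest it allows). The labels do not say whether the replicate numbers pair the libraries. Replicate differences at both times correlated at -0.09 in *Atsdr4l-4*, 0.03 in *Atsdr4l-5* and 0.00 in Col-0 over 41304 bins. Such values of called peaks cannot decide whether libraries shared a planting. With time labels permuted within each allele, 60.9 and 65.3 points gave p = 0.0556 (exact permutation test), also the smallest allowed. Neither design can pass the threshold. Depth is unknown, so that short or weak peaks cannot be told from peaks missed for want of reads.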
